A study of Homo sapiens with 6 samples.

Results

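The interleukin-1 family was followed through 9 of its genes: the ligand genes IL1A, IL1B, IL36G, IL18 and IL33, the antagonist gene IL1RN, and the receptor genes IL1R1, IL1R2 and IL1RAP. They were taken by name from the 27852 gene symbols of the table, and all 9 were in it and passed the filter on low counts. The cells were HSC3, HSC4 and SAS, which are established lines derived from human oral squamous carcinoma. They were grown in DMEM, a standard culture medium, and in HPLM, whose composition follows that of human plasma. The media held heat-inactivated fetal bovine serum and antibiotic-antimycotic, and the labels give no further agent, allele or time in culture. That gave 6 libraries of poly(A) RNA, 3 in each medium and 1 for each line and medium, with between 17715962 and 20171750 estimated counts each. The lines therefore stand in for replicates of the medium, and the 2 media for replicates of a line. With line and medium both fitted, p-values of either comparison rest on the spread of the medium response over lines, not on replicate cultures. A difference between media within 1 line has no replicate check.

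Ligands of this family are alarm signals of epithelium. IL-1α and IL-1β bind the receptor encoded by IL1R1, which then recruits the accessory protein encoded by IL1RAP and signals through MyD88, IRAK kinases and NF-κB to cytokine, chemokine and antimicrobial genes. IL1RN encodes the receptor antagonist, which occupies the receptor without signalling, and IL1R2 encodes a decoy receptor that binds ligand and lacks the signalling domain. IL-36γ acts through a receptor of its own together with the same accessory protein. IL-18 is made as a precursor that caspase-1 cleaves, and IL-33 is a nuclear protein released from damaged cells. Keratinocytes and squamous carcinoma cells are known sources of IL-1α.

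In GENCODE 29 (GRCh38), 6 of the 9 genes lie on chromosome 2. IL1R2 (chr2:101991844-102028544, plus strand) ends 36000 bases before IL1R1 (chr2:102064544-102179874, plus strand). A second group holds IL1A (chr2:112773915-112784590, minus strand), IL1B (chr2:112829751-112836903, minus strand), IL36G (chr2:112973203-112985665, plus strand) and IL1RN (chr2:113107214-113134016, plus strand). In that order, 45161, 136300 and 121549 bases separate them. IL1RAP is on chromosome 3 (chr3:190514051-190659750, plus strand), IL33 on chromosome 9 (chr9:6215786-6257983, plus strand) and IL18 on chromosome 11 (chr11:112143251-112164117, minus strand).

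RefSeq promoter windows (GRCh38.p14), which run from 250 bases before a gene's start to 50 after it, matched 8 of the 9 members with 16 windows. IL18 has no entry. The 6 sequences below are a selection from those windows, each a stretch that lies outside every annotated exon. They are shown because IL1A and IL1B are the 2 most abundant members, both with higher values in HPLM in every line, and because IL1RN and IL1R2 each use starts whose transcripts differed in the libraries. They are written 5′ to 3′ on the gene's strand, and capitals mark matches to the AP-1 motif TGANTCA, the TATA motif TATAAA and the C/EBP motif TTNNGNAA.
IL1A, chr2:112784591-112784743, minus strand: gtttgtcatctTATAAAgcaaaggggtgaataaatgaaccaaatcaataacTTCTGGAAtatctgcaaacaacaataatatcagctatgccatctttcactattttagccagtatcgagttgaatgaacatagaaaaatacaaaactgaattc
IL1B, chr2:112836904-112837029, minus strand: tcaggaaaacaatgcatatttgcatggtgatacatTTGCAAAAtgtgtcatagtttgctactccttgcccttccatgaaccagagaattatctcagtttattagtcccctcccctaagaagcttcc
IL1RN middle start, chr2:113117721-113117892, plus strand: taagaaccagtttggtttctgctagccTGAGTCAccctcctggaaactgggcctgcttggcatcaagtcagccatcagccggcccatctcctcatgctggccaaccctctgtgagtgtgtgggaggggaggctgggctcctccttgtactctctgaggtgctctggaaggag
IL1RN downstream start, chr2:113127348-113127560, plus strand: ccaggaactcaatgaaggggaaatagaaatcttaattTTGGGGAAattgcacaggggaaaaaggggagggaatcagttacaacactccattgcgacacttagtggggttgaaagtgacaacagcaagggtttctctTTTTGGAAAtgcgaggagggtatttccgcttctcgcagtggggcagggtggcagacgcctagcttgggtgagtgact
IL1R2 upstream start, chr2:101991710-101991843, plus strand: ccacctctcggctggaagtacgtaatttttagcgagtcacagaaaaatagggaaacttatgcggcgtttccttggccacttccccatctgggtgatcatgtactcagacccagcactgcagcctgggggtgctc
IL1R2 downstream start, chr2:101998711-101998960, plus strand: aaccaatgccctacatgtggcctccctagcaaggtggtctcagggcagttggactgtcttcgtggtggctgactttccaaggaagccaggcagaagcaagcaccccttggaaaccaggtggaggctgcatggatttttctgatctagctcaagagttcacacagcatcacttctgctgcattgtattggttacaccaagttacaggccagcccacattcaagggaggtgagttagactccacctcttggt

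Both strands were searched, and positions count from the RefSeq start. The AP-1 motif was found at −12 and 39 of an IL1A start (base 112784493), in an exonic part that is not printed, and at −223 of the middle IL1RN start. It is in 7.71% of 35116 windows. TATAAA stood at −30 of the upstream IL1R2 start and of the downstream IL1RN start, likewise outside the printed part, and at −239 of the IL1A start, where it is printed. The motif also occurs in an IL1R1 window, at −229 and −124, and is in 11.5% of windows. The C/EBP motif was found 3 times in the IL1B window, at −215, −91 and −41, of which only the first is printed. It was also found at −199 and −32 of the IL1A start, −56 of the upstream IL1R2 start and −213 of the downstream IL1RN start. IL1R1 windows held it too, and it is in 36.8% of all windows. The NF-κB consensus was found in none of the 16 windows and is in 5.91% of all. The run TTTTGGAAA in the downstream IL1RN sequence is 2 overlapping C/EBP matches, at −114 and −113. A match is a run of letters and no measurement of binding, and the printed IL1R2 sequences hold none.

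IL1A and IL1B made up most of the family's RNA. Because the deposited values are corrected for transcript length, CPM (counts scaled to a common library total) can be compared between genes within a library. Mean CPM over the 6 libraries was 235 for IL1B, 174 for IL1A, 50.3 for IL18, 21.7 for IL1RAP, 12.6 for IL1R2, 5.21 for IL1RN, 2.88 for IL36G, 1.71 for IL1R1 and 1.12 for IL33. The step from IL1A to IL18 and that from IL18 to IL1RAP held in 6 of 6 libraries. Each other neighbouring pair changed places in some library: the gene with the higher mean was above the next in only 3 or 4 of 6. Together IL1A and IL1B took between 78.1% and 92.4% of the summed CPM of the 5 ligand genes and IL1RN. The lowest levels rest on few estimated counts: between 4 and 146 for IL36G, 11 and 39 for IL33, and 5 and 87 for IL1R1.

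**Figure D1:**
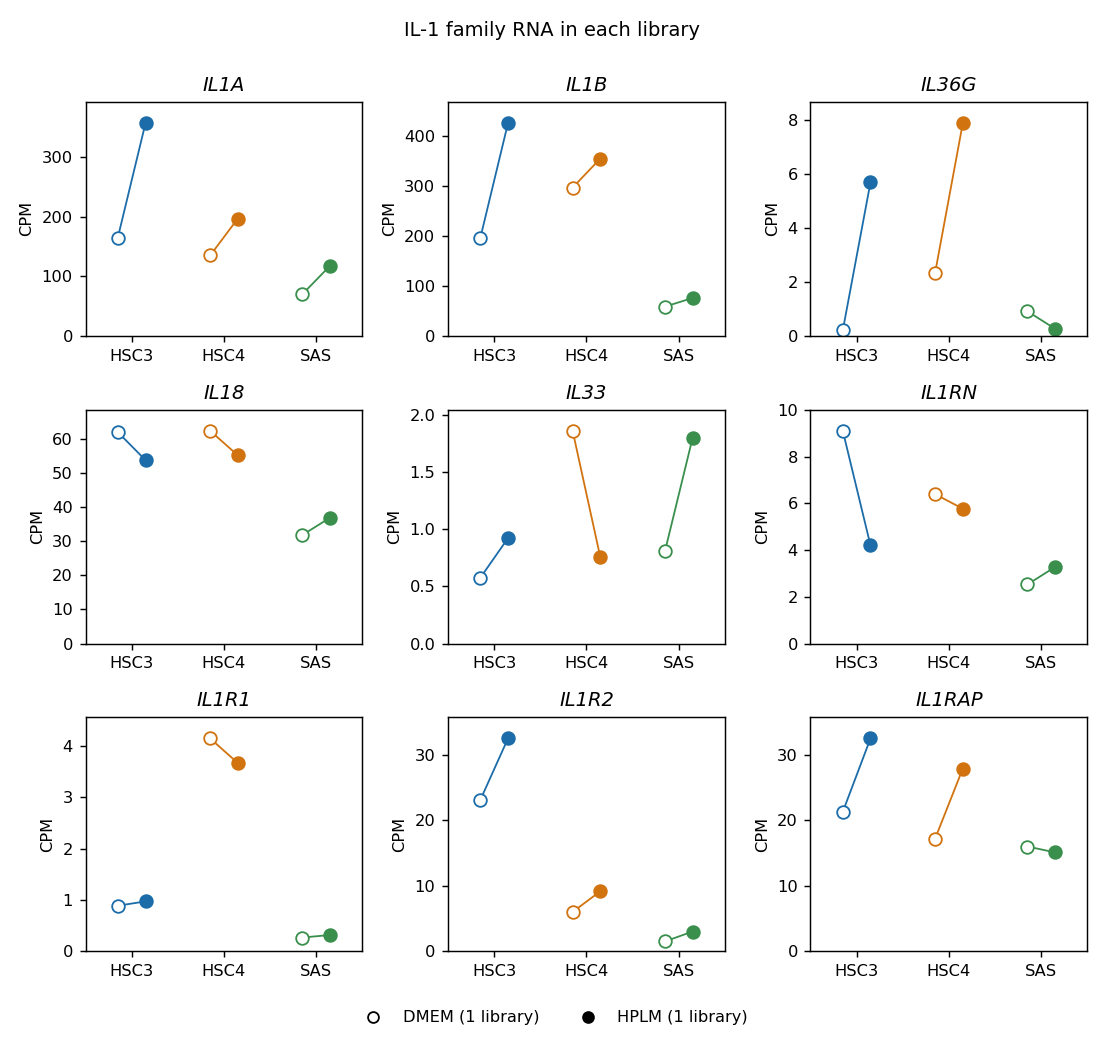
CPM of each of the 9 genes (linear axes from 0, a scale of its own in each panel) by cell line, with an open circle for the DMEM library and a filled circle for the HPLM library, 1 library each, joined within a line. IL1A, IL1B and IL1R2 are higher in HPLM in all 3 lines, and SAS has the lowest values of IL1A, IL1B, IL18, IL1R1 and IL1R2.

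IL1A, the gene of the ligand IL-1α, which is active already as a precursor, had higher values in HPLM in every line. HSC3 had 165 CPM in DMEM and 357 in HPLM, HSC4 had 135 and 197, and SAS had 70.2 and 118. Within a line the HPLM library was always the higher, by 2.16-fold, 1.46-fold and 1.69-fold, but the media overlapped across lines, since SAS in HPLM lay below HSC3 and HSC4 in DMEM. The means were 124 ± 48.5 CPM in DMEM and 224 ± 121 in HPLM (SD, n = 3 lines). With the line as a term the log2 fold change was 0.80 ± 0.13 (SE), the smallest SE relative to its size among the members. It did not pass the test (edgeR quasi-likelihood, Benjamini-Hochberg adjusted p = 0.261), while DESeq2 called it with the same fold change (adjusted p = 7.43e-06).

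IL1B, whose product needs cleavage to become active, had the same direction with more spread between lines. HSC3 had 196 CPM in DMEM and 426 in HPLM, HSC4 had 297 and 355, and SAS had 58.7 and 76.1. The HPLM library was 2.17-fold higher in HSC3 but only 1.19-fold higher in HSC4 and 1.3-fold higher in SAS. The log2 fold change was 0.58 ± 0.18 (adjusted p = 0.407). Without HSC3 it was 0.31.

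The other 3 ligand genes did not move one way. IL36G, expressed in inflamed epithelium, went from 0.209 CPM in DMEM to 5.69 in HPLM in the HSC3 libraries, and from 2.34 to 7.88 in those of HSC4. In SAS the order was the opposite, with 0.914 in DMEM and 0.265 in HPLM. Behind these values stood 4 and 111 estimated counts for HSC3, 49 and 146 for HSC4, and 17 and 5 for SAS. The fitted log2 fold change of 1.70 ± 1.02 had the largest SE of the 9 members (adjusted p = 0.62). It was 0.50 without HSC3 and 2.78 without SAS. IL18 was nearly level, with 61.9 and 53.7 CPM for HSC3, 62.3 and 55.1 for HSC4, and 31.8 and 36.9 for SAS. Its log2 fold change was −0.06 ± 0.12 (adjusted p = 0.897). IL33 stayed under 2 CPM throughout, with 0.575 and 0.922 for HSC3, 1.86 and 0.755 for HSC4, and 0.807 and 1.8 for SAS. Its log2 fold change of 0.17 ± 0.59 (adjusted p = 0.948) was not distinguishable from 0, with the lines in opposite directions.

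IL1RN, the antagonist gene, had no common direction over the lines. HSC3 had 9.1 CPM in DMEM and 4.2 in HPLM, HSC4 had 6.39 and 5.77, and SAS had 2.53 and 3.28. HSC3 in HPLM thus had 0.462 of its DMEM level, HSC4 0.903 and SAS 1.3. The log2 fold change of −0.32 ± 0.31 (adjusted p = 0.77) was not distinguishable from 0. Set against the sum of IL1A and IL1B in the same library, IL1RN of HSC3 was 2.52% in DMEM and 0.537% in HPLM. That share was 1.48% and 1.05% for HSC4, and 1.96% and 1.69% for SAS. It was lower in HPLM in 3 of 3 lines, and it is a ratio of RNA levels with no test.

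**Figure D2:**
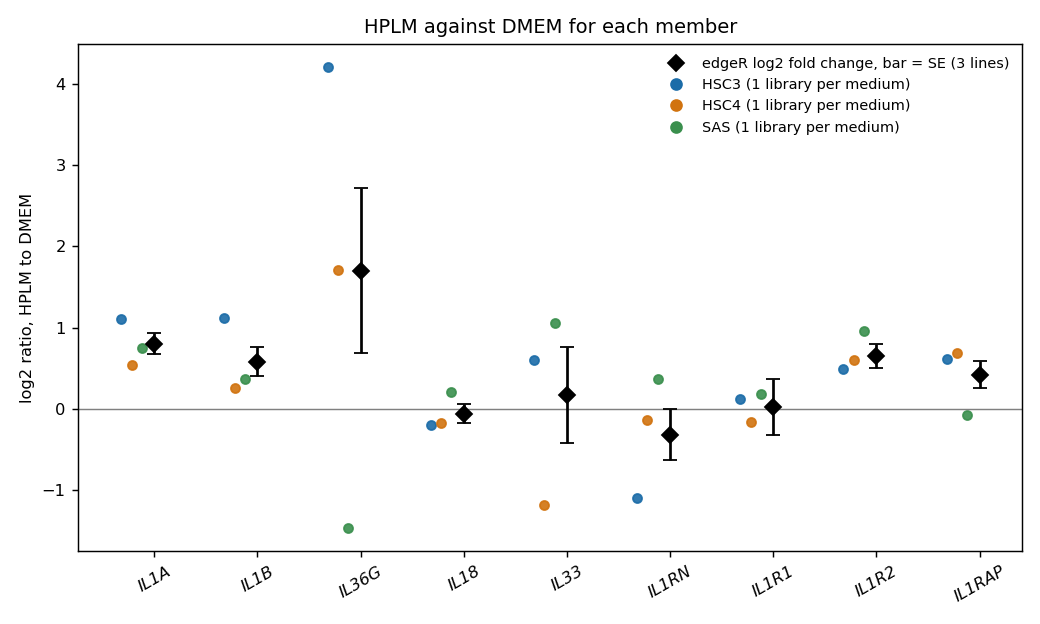
Log2 ratio of HPLM to DMEM for each of the 9 genes: coloured points are the single libraries of 1 line compared, and black diamonds with bars are the edgeR log2 fold change with its SE over the 3 lines. IL1A, IL1B and IL1R2 have all 3 lines above 0, and IL36G ranges from −1.47 in SAS to 4.21 in HSC3.

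Among the receptor genes the decoy had higher values in HPLM in all 3 lines, the accessory chain in HSC3 and HSC4 only, and IL1R1 was near level. For IL1R2, HSC3 had 23.1 CPM in DMEM and 32.5 in HPLM, HSC4 had 6.01 and 9.17, and SAS had 1.51 and 3.02. Every line was higher in HPLM, by 1.41-fold, 1.53-fold and 2-fold, while the levels of the 3 lines did not overlap. The log2 fold change was 0.65 ± 0.15 (adjusted p = 0.362). IL1RAP, the accessory chain shared by the IL-1, IL-33 and IL-36 receptors, had 21.3 and 32.5 CPM in the HSC3 libraries and 17.2 and 27.9 in those of HSC4, but 16 and 15.1 in those of SAS. Its log2 fold change was 0.42 ± 0.17 (adjusted p = 0.495). IL1R1, the signalling receptor, had 0.889 and 0.973 CPM for HSC3, 4.15 and 3.67 for HSC4, and 0.269 and 0.318 for SAS. The log2 fold change was 0.02 ± 0.35 (adjusted p = 0.996), and its sign turned under limma-voom (−0.08) and without a scaling factor (−0.03).

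Of the 9 members, 0 were called between the media at an adjusted p under 0.05 (edgeR), and 0.00756% of the 13236 genes tested were called, all of them higher in HPLM. At an unadjusted p under 0.05, 3 members were higher in HPLM (IL1A, IL1B and IL1R2) and 0 were lower, where 5.57% of all genes were higher and 4.55% were lower. The same 3 members were higher in all 3 lines, and 0 were lower in all 3, where 17% of all genes were in each class. The fold change was positive for 7 of 9 members, with a median log2 fold change of 0.42 against 4e-04 over all genes tested. DESeq2 called 1 member, IL1A, where it called 0.96% of all genes, and limma-voom called 0, where it called 0.068%.

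Between lines the receptor genes had different orders, and HSC4 against HSC3 was lower for IL1R2 and higher for IL1R1. IL1R2 fell from HSC3 to HSC4 to SAS: 2 libraries of 23.1 and 32.5 CPM, then 6.01 and 9.17, then 1.51 and 3.02, with no overlap. The log2 difference was −1.88 ± 0.18 for HSC4 minus HSC3 (adjusted p = 0.00146), −3.65 ± 0.20 for SAS minus HSC3 (adjusted p = 4e-04) and −1.77 ± 0.20 for SAS minus HSC4 (adjusted p = 0.00207). SAS thus had 12.6-fold less of the decoy receptor RNA than HSC3. These 3 contrasts come from 1 fit and share libraries.

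IL1R1 had another order, with HSC4 highest and SAS lowest. HSC4 was above HSC3 by 2.06 ± 0.42 on the log2 scale (4.18-fold, adjusted p = 0.0126), and SAS was below HSC4 by 13.1-fold (log2 difference −3.71 ± 0.47, adjusted p = 0.00281). SAS minus HSC3 was −1.64 ± 0.49 (adjusted p = 0.0413), a call lost under DESeq2 (adjusted p = 0.110), limma-voom (0.0578) and no low-count filter (0.0512), and when any 1 library was left out (between 0.0719 and 0.176). The call of HSC4 above HSC3 was lost when any 1 of the 4 libraries of those lines was left out (adjusted p between 0.0648 and 0.106). IL1RAP was the most even receptor gene: SAS minus HSC3 was −0.75 ± 0.21 (adjusted p = 0.0357), and the other contrasts did not pass (−0.26 ± 0.21 and −0.49 ± 0.21). That call was lost with no low-count filter (adjusted p = 0.0527), with no replicate block (0.067) and without the HSC3 DMEM library (adjusted p = 0.0727), the HSC3 HPLM library (0.176) or the SAS HPLM library (0.179).

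The balance of decoy RNA to all IL1R1 RNA also differed by line. The transcript of the full-length signalling receptor took between 0% and 63.5% of IL1R1. The ratio of IL1R2 to IL1R1 in CPM was 26 in DMEM and 33.4 in HPLM for HSC3, 1.45 and 2.5 for HSC4, and 5.6 and 9.5 for SAS. It was higher in HPLM in 3 of 3 lines, and it is a ratio of RNA levels with no test. IL1R1 in HSC3 rests on 17 and 19 estimated counts. The ratio of IL1RAP to IL1R1 was 23.9 and 33.4 for HSC3, 4.15 and 7.6 for HSC4, and 59.4 and 47.7 for SAS, where IL1R1 rests on 5 and 6 estimated counts. In every library the accessory chain and the decoy each had more RNA than IL1R1.

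**Figure D3:**
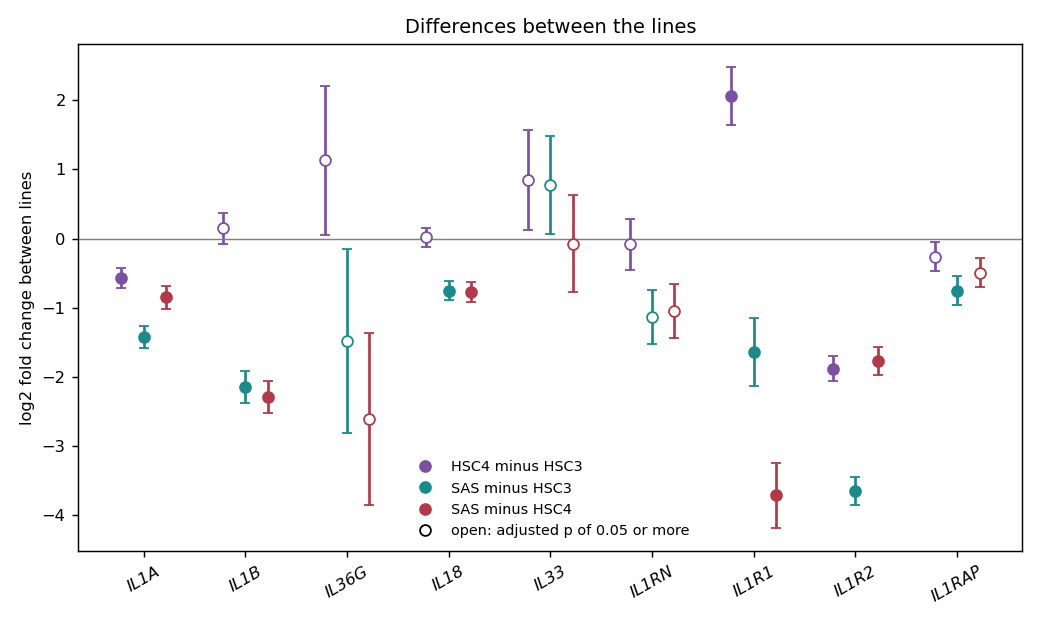
Log2 fold change between lines for each of the 9 genes, with bars of 1 SE from the edgeR fit over 6 libraries (2 per line); filled points have an adjusted p under 0.05. SAS lies below both other lines for IL1A, IL1B, IL18, IL1R1 and IL1R2, and IL1R1 is higher and IL1R2 lower in HSC4 than in HSC3.

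SAS also had the least RNA of the ligand genes IL1A, IL1B and IL18. IL33 was not lowest there, at 0.807 and 1.8 CPM against 0.575 and 0.922 in HSC3. IL1B in SAS, at 58.7 and 76.1 CPM, was 4.39-fold below HSC3 (log2 difference −2.14 ± 0.23, adjusted p = 0.00164) and 4.89-fold below HSC4 (−2.29 ± 0.23, adjusted p = 0.00134). IL1A was lower in SAS than in HSC3 by −1.42 ± 0.16 on the log2 scale (adjusted p = 0.00185) and than in HSC4 by −0.85 ± 0.16 (adjusted p = 0.00822). IL1A was also lower in HSC4 than in HSC3 (−0.57 ± 0.15, adjusted p = 0.0314), while IL1B was not distinguishable between these lines (0.15 ± 0.22, adjusted p = 0.606). IL18 was lower in SAS than in HSC3 (−0.75 ± 0.14, adjusted p = 0.0103) and HSC4 (−0.77 ± 0.14, adjusted p = 0.00892). IL1RN was lower in SAS by −1.13 ± 0.39 against HSC3 and −1.04 ± 0.39 against HSC4, without passing (adjusted p = 0.0653 and 0.0762). IL36G and IL33 had SEs between 0.70 and 1.33 and passed in no contrast, though IL36G passed for SAS minus HSC4 in 4 of 14 alternatives and IL1RN in 3. The call of IL1A for HSC4 minus HSC3 held in 8 of 14 alternatives and was lost without the HSC3 HPLM (adjusted p = 0.166), HSC4 HPLM (0.199), SAS DMEM (0.0529) or SAS HPLM library (0.0506), and that for SAS minus HSC4 without the HSC4 DMEM (0.0571), SAS DMEM (0.0506) or SAS HPLM library (0.0590). The calls of IL18 were lost without the SAS DMEM library (0.0726 and 0.0628) or the DMEM library of the other line (0.0635 and 0.0638), and those of IL1B and IL1R2 held in 14 of 14 alternatives.

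Between lines the count of members called was 3 for HSC4 minus HSC3 (1 higher, 2 lower), where 37.4% of all genes were called. Of all genes, 18.8% were higher and 18.6% lower there. It was 6 for SAS minus HSC3, all lower, where 39.4% of all genes were called, 18.8% higher and 20.6% lower. For SAS minus HSC4 it was 5, all lower, where 41.3% of all genes were called, 20% higher and 21.3% lower. In that order the members called fell to 1 without the HSC3 HPLM or the HSC4 HPLM library, to 3 without the HSC3 DMEM library and to 3 without the HSC4 DMEM library. Over all genes, leaving out 1 library of the lines compared lowered the calls to as few as 2445 (from 4952), 2848 (from 5213) and 2787 (from 5462). The median log2 difference of the 9 members was 0.02, −1.42 and −1.04 for the 3 contrasts, against −0.0044, −0.009 and −0.0076 over all genes. The ratio of IL1B to IL1A also differed by line: 1.19 in both HSC3 libraries, 2.2 and 1.8 for HSC4, and 0.835 and 0.642 for SAS, so IL1A exceeded IL1B only in SAS.

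The 9 genes had 72 transcripts in the table, and their forms differed in what they encode. IL1A had 1 transcript. The transcript of IL1B with the whole precursor of 269 codons took between 92.7% and 94.9% of the gene, and those of IL18 with 193 codons between 77% and 85.1%. IL33 RNA was almost all from a transcript without a coding region (83.6% to 100%), and its coding transcripts summed to at most 0.124 CPM. Splitting of estimated counts among transcripts that share exons is uncertain, and correction for length raises short transcripts.

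IL1RN showed the start that gives the intracellular forms of the antagonist. Transcripts from the middle start gave 7.62 CPM in DMEM and 3.59 in HPLM for HSC3, 3.38 and 3.6 for HSC4, and 1.92 and 2.57 for SAS. That was between 52.9% and 85.3% of the gene. The downstream start, which encodes the secreted form of 177 codons, gave 0.311 and 0.227 CPM for HSC3, 0.911 and 0.565 for HSC4, and was listed at 0 in both SAS libraries. The lower HPLM value of IL1RN in HSC3 lay mainly in the middle-start transcripts.

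IL1R2 and IL1RAP showed forms that differ in start or in membrane anchoring. The upstream start of IL1R2 gave 6.76 and 9.91 CPM in HSC3 but between 0.266 and 0.677 CPM in the 4 libraries of HSC4 and SAS. The downstream start gave 13.8 and 16.2 CPM for HSC3, 4.77 and 6.12 for HSC4, and 0.537 and 2.48 for SAS, and the coding transcripts of both have 398 codons. For IL1RAP, transcripts of the membrane form (570 codons) took between 51.4% and 68.5% of the gene and those of the soluble form (356 codons) between 16.2% and 29.6%. Membrane-form CPM was 12.8 and 22.2 for HSC3, 10.5 and 16.5 for HSC4, and 8.89 and 7.78 for SAS, the direction of the whole gene. The soluble form was at 3.52 and 5.26, 5.09 and 5.46, and 3.71 and 2.55 CPM in the same order.

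IL1R1 and IL36G were too low for a firm split. The full-length transcript of IL1R1 (569 codons) gave 2.65 and 1.62 CPM in HSC4 and at most 0.315 CPM elsewhere. The transcript of IL36G with a complete coding region of 169 codons gave 0.195 CPM in DMEM and 1.82 in HPLM for HSC3, 1.19 and 3.78 for HSC4, and 0 and 0.257 for SAS. A short transcript from an upstream start, whose coding region is incomplete in the annotation, gave 3.45 CPM in HSC3 and 4.07 in HSC4 in HPLM. It made up 60.9% and 51.8% of IL36G there. A pseudogene lies within IL36G, the antisense gene IL1R1-AS1 overlaps IL1R1 and a gene on the other strand spans IL18, so reads of these members may be shared.

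**Figure D4:**
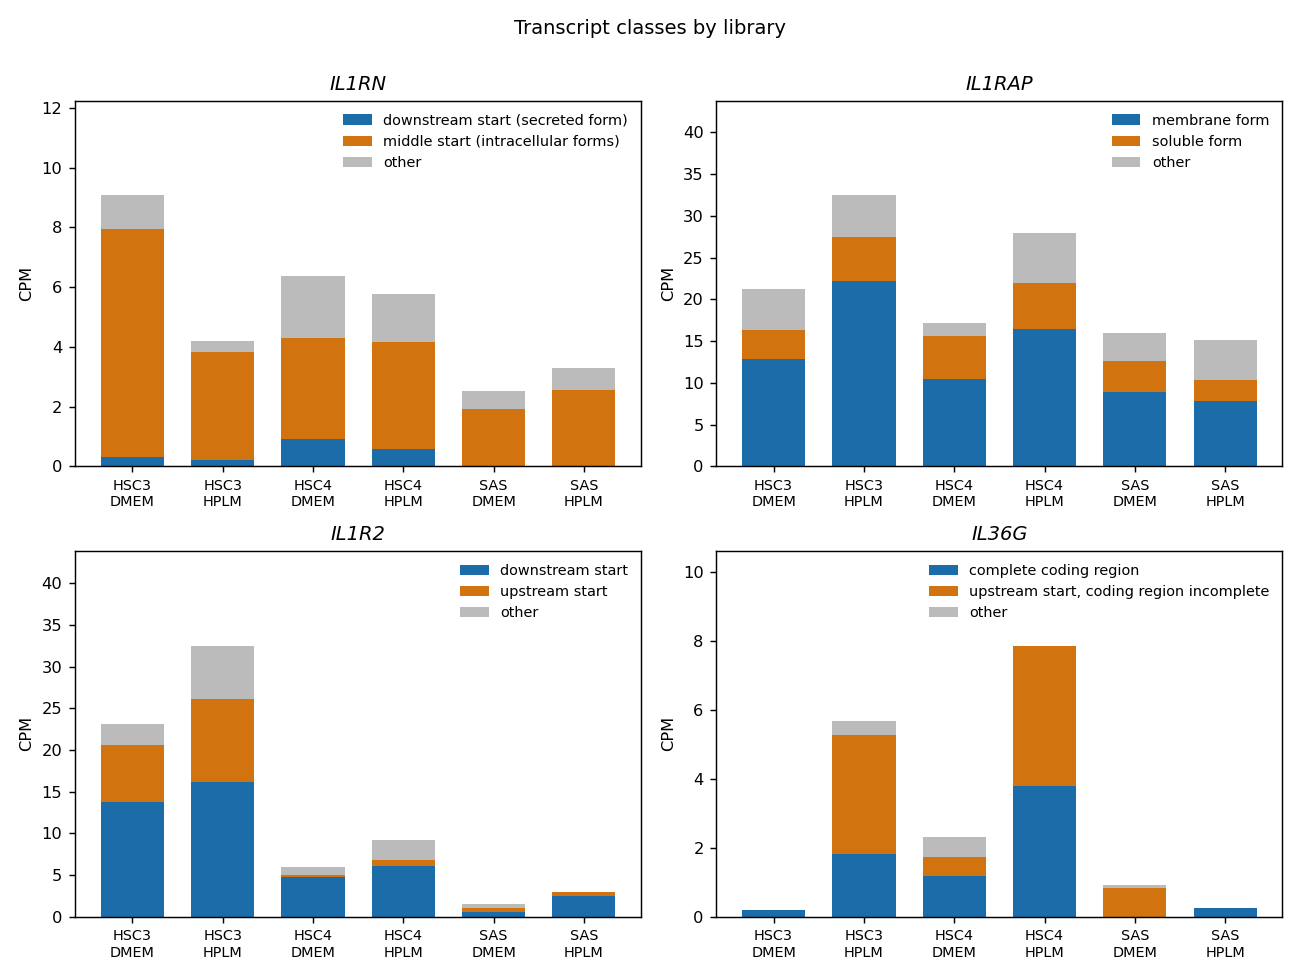
CPM (linear axis from 0) of IL1RN, IL1RAP, IL1R2 and IL36G in each of the 6 libraries, stacked by the start or form of the transcripts. The middle start leads IL1RN in every library, the membrane form leads IL1RAP, and the upstream start of IL1R2 is at 6.76 and 9.91 CPM in HSC3 and under 1 CPM in the other lines.

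The pathway around the members was followed in lists of other family genes, receptor signalling, processing and release, and genes known to be induced by IL-1. None of these lists had a gene called between the media (edgeR, adjusted p). Beside the counts by unadjusted p that follow, 5.57% of all genes were higher and 4.55% were lower by that threshold. At an unadjusted p under 0.05, 0 of 8 tested other family genes differed, and their median log2 fold change was 0.17. Of 16 tested signalling genes, 2 were higher and 1 lower, with a median of −0.02. PELI1, a ubiquitin ligase acting on IRAK kinases, was higher by 0.69 ± 0.21, IRAK2 by 0.60 ± 0.20, and the inhibitor TOLLIP was lower by −0.26 ± 0.10. CHUK, an IκB kinase subunit, was at −0.22 ± 0.10 and did not reach that p. Of 19 tested processing genes, 2 were higher and 0 lower, with a median of 0.04: the inflammasome sensors NLRP1 (0.66 ± 0.21) and NLRP3 (1.32 ± 0.50). CAPN1, a calpain of the family that cleaves IL-1α, was at −0.24 ± 0.10 without reaching that p.

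Genes known to be induced by IL-1 had higher values in HPLM in most cases. Of 30 tested, 19 were higher at an unadjusted p under 0.05 and 0 lower, where 5.57% and 4.55% of all genes were. In all 3 lines 21 were higher and 1 was lower, where 17% of all genes were in each class. Their median log2 fold change was 1.30, and within lines 1.71 (HSC3), 0.52 (HSC4) and 1.80 (SAS). The lead genes were SAA1 (2.65 ± 0.22), S100A8 (2.18 ± 0.20), SAA2 (3.15 ± 0.35) and CSF3 (3.71 ± 0.49), with adjusted p between 0.121 and 0.207. DESeq2 called all 4 (adjusted p of 0.00172 or less), and limma-voom called the first 3. These genes were listed with earlier results of the same libraries known, and many also respond to other NF-κB signals. MMP1 (−0.91 ± 0.65), MMP3 (−0.55 ± 0.43), MMP9 (−0.67 ± 0.28) and MMP13 (−0.63 ± 0.95), proteases on the same list, did not reach that unadjusted p. MMP1, MMP3 and MMP13 were higher in HPLM in HSC3 only, and MMP9 was higher in no line. In HSC3 the log2 ratios of HPLM to DMEM were 0.42, 0.35, −1.29 and 1.61 in the order listed. In HSC4 they were −0.32, −0.61, −0.0 and −2.1, and in SAS −2.96, −1.34, −0.89 and −1.02. For comparison, the log2 ratios of IL1A were 1.11, 0.54 and 0.75 in the same lines, and those of IL1B 1.12, 0.26 and 0.37.

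**Figure D5:**
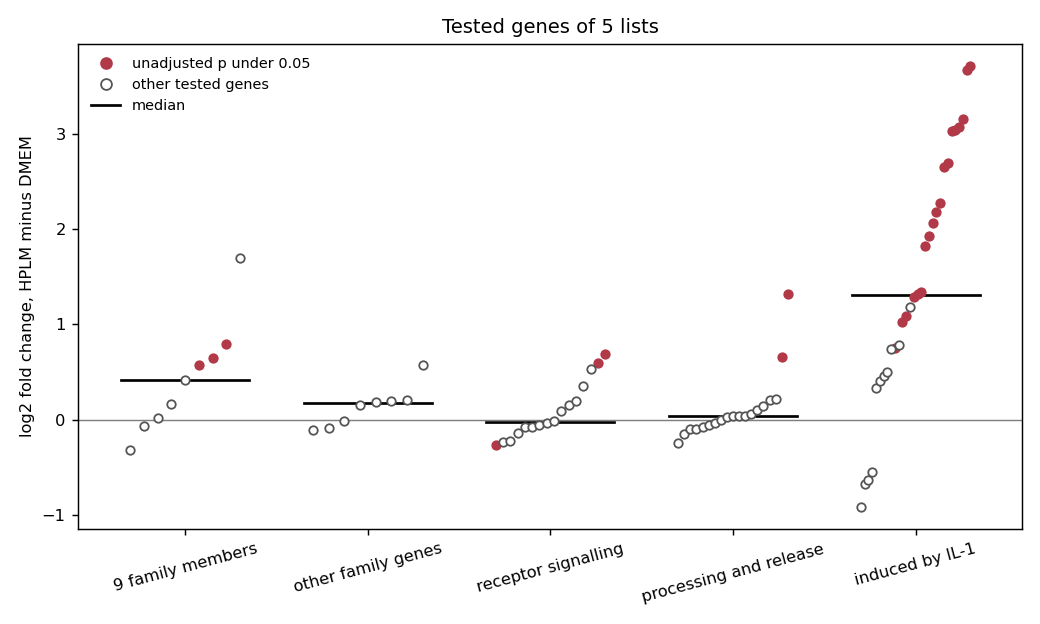
Log2 fold change of HPLM minus DMEM (edgeR, 3 lines) for the tested genes of 5 lists, 1 point a gene sorted by value, with filled points at an unadjusted p under 0.05 and a bar at the median. The 30 tested genes induced by IL-1 have a median of 1.30, the 9 members 0.42, and the 16 signalling genes −0.02.

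Between lines, the lists differed in how many of their genes were lower in SAS. MYD88, the adaptor of the receptor, was lower in SAS than in HSC4 by −2.0 ± 0.14 (adjusted p = 0.000601), and IRAK2 was higher in HSC4 than in HSC3 by 1.76 ± 0.24 (adjusted p = 0.00373). CASP1, which cleaves the IL-1β and IL-18 precursors, was lower in SAS than in HSC3 by −3.40 ± 0.28 (adjusted p = 0.000842), and its adaptor gene PYCARD by −1.94 ± 0.13 (adjusted p = 0.00061). Of 19 tested processing genes, 9 were called lower and 1 higher in SAS against HSC3, and of 30 induced genes 16 lower and 1 higher. Of 16 signalling genes, 4 were called lower and 2 higher, where 20.6% of all genes were lower and 18.8% higher. SAA1 (−3.98 ± 0.29) and S100A8 (−5.08 ± 0.28) were among the induced genes called lower. The 8 tested other family genes were split, with 3 called higher and 3 lower in SAS against HSC3. Against HSC4, 4 were called higher and 3 lower, where 20% of all genes were higher and 21.3% lower. The 2 named by the rule were higher: IL1RL1, the receptor of IL-33, stood at 20.8 and 16.7 CPM in SAS against 3.03 and 2.92 in HSC3 and 0.525 and 0.701 in HSC4. IL1RL1 was higher in SAS than in HSC4 by 4.93 ± 0.27 (adjusted p = 0.000404), and IL1RAPL1, a related synaptic receptor, by 8.36 ± 0.44 (adjusted p = 0.000346). SAS had the lowest CPM of IL1R1 and IL1R2 and the highest of the IL-33 receptor gene.

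Each member was set beside the 2 genes of mean CPM of 5 or more, of 9812 or 9813 such genes, whose log2 CPM followed it most closely over the 6 libraries. For IL1A these were EMG1 (Pearson r = 0.995) and GOLT1B (0.993), for IL1B MYL6 (0.997) and SNAPC5 (0.995), and for IL18 TGIF1 and SLC10A3 (0.997 each). For IL1RN they were OSGIN1 (0.998) and FAM210B (0.985), for IL36G SNRPA1 (0.985) and ARSI (0.981), and for IL33 STARD5 (0.962) and RMC1 (0.935). For IL1R1 they were PLEKHH1 and CD58 (0.999 each), for IL1R2 FAM174A (0.999) and NDUFS5 (0.998), and for IL1RAP SAMD1 (0.976) and ZP3 (0.972). Among the members, IL1RN and IL18 followed each other most closely (0.921). IL1A followed IL1R2 (0.904) and IL1RAP (0.897), and IL1B followed IL18 (0.873) and IL1A (0.859). IL33 followed none, with values between −0.504 and 0.087. The 6 points come from 3 lines, so libraries of 1 line share their level, and these values are a description.

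The libraries carried squamous epithelial markers, with all 8 tested. KRT5, a basal keratin, was between 511 and 2190 CPM, and KRT14 was 7.49 ± 0.46 lower on the log2 scale in HSC4 than in HSC3, at 4.39 and 10.8 CPM. KRT17 (−0.40 ± 0.10), SFN (−0.33 ± 0.11) and KRT5 (−0.38 ± 0.15) were lower and EPCAM (0.28 ± 0.10) was higher in HPLM at an unadjusted p under 0.05, and 0 were called by edgeR (DESeq2 called KRT17, adjusted p = 0.0368). Leukocytes and stromal cells also express IL1B and IL1R1, so their markers were read in the same libraries. Summed leukocyte markers were between 46.2 and 150 CPM in DMEM and between 56.2 and 176 in HPLM, nearly all from CD68 and CD74, which epithelial cells also express. The other 21 leukocyte, fibroblast and endothelial markers were at most 5.59 CPM in any library: PTPRC was between 1.48 and 2.3 CPM, FCGR3A, COL3A1 and KDR were listed at 0 in all 6, and LYZ was at most 0.102. CD68 was higher in HPLM by 0.27 ± 0.09 at an unadjusted p under 0.05 and lower in HSC4 than in HSC3 by −0.77 ± 0.12, and CD74 by −6.26 ± 0.22. CD74 in HPLM was at 0.30 ± 0.15, ITGAM at 0.70 ± 0.45, CD14 at 0.30 ± 0.44 and COL1A1 at 0.06 ± 0.24. COL1A1 was lower in SAS than in HSC3 (−2.55 ± 0.32). The part of these markers in the members' values was not tested, and in bulk RNA fewer cells of a type and less RNA per cell cannot be told apart.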

How the data were processed

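Poly(A) RNA of 3 lines in 2 media was measured in 6 libraries, made strand-specific per the labels' protocols. The submitters' processing notes name FastQC, kallisto and hg38. The sources used here give no versions, annotation release or use of strand. The authors deposited expected counts per transcript as scaled TPM, abundances brought up to library size. They are not reads, so short transcripts weigh more and no counting interval is given. DMEM columns carry the line's name with an ending the labels do not explain, and 0 columns were left unused.

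Of 161149 rows, 1312 repeats of a transcript were counted once, and 6878 transcripts without a symbol (0.362% to 0.479% of a library) were dropped. This left 152959, which were added up to 27852 symbols and rounded. filterByExpr, grouped by medium, with a count of at least 10 and a total of at least 15, left 13236 genes. After TMM scaling, edgeR 4.0.16 (R 4.3.3) fitted line and medium by quasi-likelihood with 2 residual and 4 prior degrees of freedom. Benjamini-Hochberg adjustment ran over all genes tested, and a call is an adjusted p under 0.05. The SE is the absolute log2 fold change divided by the root of F. Per-line ratios subtract log2 CPM (prior count of 2). The line pairs the libraries, since each was grown in both media: deviations from the medium's mean correlated at 0.779, 0.792 and 0.805 within HSC3, HSC4 and SAS. Alternatives were DESeq2 1.42.0, limma 3.58.1 (voom), other scaling and filters, repeats summed, no block, and each line or library left out.

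The members and lists were chosen with earlier results of these data known. Named were all members, from each list up to 4 tested genes of mean CPM 1 or more with the smallest p for the medium and up to 2 for the lines, and 2 pattern neighbours per member. One gene the rule named is not reported here. The MMP genes and markers at or near 0 were named after their values were seen. Transcripts and positions are from GENCODE 29 and promoters from RefSeq.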

Additional observations from a re-analysis of the deposited data

Results flagged for a closer look

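For 6 of the 9 members (66.7%) the lines moved in opposite directions between media, close to the 65.6% of all 13236 genes tested, so the count says nothing particular about the members. The spread, taken as the highest minus the lowest log2 ratio of HPLM to DMEM over the 3 lines, was 5.68 for IL36G, 2.26 for IL33, 1.46 for IL1RN, 0.77 for IL1RAP, 0.42 for IL18 and 0.35 for IL1R1. With 1 library for each line and medium, none of these differences was tested. For IL36G the log2 ratio was 4.21 (HSC3), 1.71 (HSC4) and −1.47 (SAS), with estimated counts of 4 in DMEM in HSC3 and 5 in HPLM in SAS. IL1RN had −1.10, −0.14 and 0.36 in the same order, and IL33 0.60, −1.19 and 1.06. SAS was the line apart for IL1RAP (−0.08 against 0.61 and 0.69) and IL18 (0.21 against −0.20 and −0.18), and HSC4 for IL1R1 (−0.17 against 0.12 and 0.18).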

How the results depend on the processing

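The lines pair the media, 2 residual degrees of freedom remain, and members under 5 CPM rest on few estimated counts. The cause of the changes below was not tested. For the medium, 1 gene was called by edgeR, 127 by DESeq2 and 9 by limma-voom. There were 0 with upper-quartile scaling, no filter, the filter by line or no replicate block, and between 0 and 4 when a line was left out (4 without HSC3). Without the replicate block 59 genes had an unadjusted p under 0.05, against 1339. DESeq2 called 1 member (IL1A), and the other alternatives called 0.

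Leaving out 1 library gave between 2445 and 4844 calls for HSC4 minus HSC3 (4952 with all), between 2848 and 5000 for SAS minus HSC3 (5213) and between 2787 and 5554 for SAS minus HSC4 (5462). The members called were then between 1 and 2, between 3 and 5, and between 3 and 7, and with no low-count filter 4 for SAS minus HSC3. No scaling factor moved the median of all genes by 0.135 for HSC4 minus HSC3 and by −0.155 for SAS minus HSC4. Calls then split into 3097 higher and 1753 lower, against 2490 and 2462, and into 1832 and 3454, against 2641 and 2821.

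Of 477 alternative values of members, 25 turned direction, all from uncalled results: IL1R1 for the medium under limma-voom (−0.077), no scaling factor (−0.032) and no replicate block (−0.10), IL33 for SAS minus HSC4 under limma-voom (0.051), IL1RN for HSC4 minus HSC3 with no scaling factor (0.061), and the rest on leaving out libraries. When a line was left out, medium values ran from −0.63 to 0.096 for IL1RN, −0.19 to 0.013 for IL18, −0.36 to 0.92 for IL33 (−0.070 without HSC3), −0.049 to 0.17 for IL1R1 (−0.048 without SAS), −0.10 to 1.59 for IL36RN, −0.22 to 0.14 for IL1RL1 and −0.16 to 0.65 for CD14. When a library was left out, HSC4 minus HSC3 ran from −0.25 to 0.56 for IL1B, −0.63 to 0.57 for IL1RN, −0.10 to 0.12 for IL18 and −0.39 to 1.82 for IL33. SAS minus HSC3 ran from −3.95 to 1.30 for IL36G and −0.10 to 1.41 for IL33, and SAS minus HSC4 from −1.08 to 1.12 for IL33.

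A call of a member was lost in 32 alternatives, among them, without the replicate block, IL1A for HSC4 minus HSC3 (adjusted p = 0.25) and SAS minus HSC4 (0.151) and IL1RAP for SAS minus HSC3 (0.067). The 81 alternative ratios per line (prior counts of 0.5 and 5, no scaling factor) were not compared for direction.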

Other observations

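Other ligands and binding proteins of the family were mostly low. IL36A was listed at 0 in all 6 libraries, and IL36B, IL1F10, IL18RAP and IL1RAPL2 were under 0.3 CPM in each. IL37, the gene of a ligand known to dampen inflammation, was at 4.52 and 4.77 CPM in SAS and at most 0.564 CPM elsewhere, and was higher in SAS than in HSC3 (log2 difference 3.40 ± 0.48, adjusted p = 0.00377, edgeR) and HSC4 (3.90 ± 0.50, adjusted p = 0.00291). IL1RL2, the receptor of IL-36 ligands, had the order of IL1R1, with 3.39 and 3.78 CPM in HSC4, 1.05 and 1.95 in HSC3 and 0.538 and 0.265 in SAS, and was lower in SAS than in HSC4 by −3.12 ± 0.57 (adjusted p = 0.00838). IL18R1, a chain of the IL-18 receptor, was lower in SAS than in HSC3 by −2.18 ± 0.41 (adjusted p = 0.00913). SIGIRR, an inhibitory receptor of the family, was between 12.3 and 31.3 CPM, with a medium log2 fold change of 0.21 ± 0.15. IL18BP, which binds IL-18, was between 3.93 and 10.4 CPM (0.19 ± 0.18), and IL36RN, the antagonist of the IL-36 receptor, between 0.377 and 2.48 CPM (0.58 ± 0.73). IL36A, IL36B, IL1F10, IL18RAP and IL1RAPL2 were left out by the low-count filter and not tested, and none of the other genes named here passed the test between media.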
